A study of Oryza sativa with 12 samples.

Results

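The response of wild type rice roots to added PEP1 was described across all genes, from 3 libraries of roots treated with 1 µM PEP1 and 3 of roots treated with ethanol. These are 6 of the 12 libraries of the study. All came from roots of 7-day-old seedlings of the cultivar XS134 (Oryza sativa) and were sequenced as RNA libraries. The other 6 libraries, from roots of OsPEP1 RNAi transgenic line1 under the same 2 treatments, share 1 fit with these 6. They enter the filter and the estimate of spread behind every p-value. With only the 6 wild type libraries in the fit, 535 genes passed instead of 1330. The RNAi libraries also serve to ask whether a change differed between the genotypes. That line is 1 transgenic line, the locus of OsPEP1 is not given in the sources used here, and the knockdown was therefore not checked. The labels give neither the kind of molecule that PEP1 is nor the duration of the treatment. Nothing in them says that the 3 libraries of a group are separate cultures. The p-values therefore measure only the spread within the groups of all 12 libraries, which may be technical.

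Roots take up mineral ions through families of membrane transporters, and many of these genes respond to the supply of the ion, to sugar status and to hormones. Calcium sensors of the CBL family act with CIPK kinases to adjust several such transporters. Auxin response factors and Aux/IAA repressors together set the output of auxin, the hormone that shapes root growth. Phenylpropanoid enzymes and cellulose synthases supply the cell wall. The genes described here belong to these and other processes outside iron, phosphate and aquaporins.

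Of 57265 features, 25602 had enough counts to be tested, and 1330 of them passed edgeR's quasi-likelihood test at an adjusted p below 0.05, which is 5.19% of the genes tested. Of these, 650 (2.54%) were higher and 680 (2.66%) lower under PEP1. The change was at least 2-fold in 946 passing genes, at least 4-fold in 432 and at least 16-fold in 141, of which 57 were higher and 84 lower. The values of the 3 PEP1 and 3 ethanol libraries did not overlap for 5346 genes (20.9%), among them 1325 of those that passed. Among the 55 genes with a mean of 1000 CPM or more (CPM, counts scaled to the library total), 3 rose and 11 fell. The median log2 change of all genes tested was 0.00. In bulk roots, fewer cells of a type and less RNA per cell cannot be told apart.

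Library totals ranged from 15368736 to 21317008 counts, where 3 counts correspond to 0.141 to 0.195 CPM. Along the first principal component of the 6 wild type libraries (69.1% of the variance), ethanol replicates 2 and 3 lay at -60.8 and -45.2 and PEP1 replicates 1 and 3 at 38.8 and 52.8. Ethanol replicate 1 (5.21) and PEP1 replicate 2 (9.24) lay between them, although the second component (24.2%) set them at -46.2 and 35.5. The number of passing genes moved with single libraries. Leaving out ethanol replicate 1, 2 or 3 gave 2942 (5.48% of genes higher, 5.77% lower), 807 or 731 genes, and leaving out PEP1 replicate 1, 2 or 3 gave 571, 971 or 593. Of the 1330 genes, 491 passed without each of these libraries in turn, 253 of them higher and 238 lower. All 7 root markers were detected in every library. Their summed level was 819.5, 705.2 and 894.4 CPM under ethanol and 2696.9, 1523.4 and 4324.5 CPM under PEP1, without overlap. Of the 7, 2 passed, the silicon transporter genes Lsi1 (LOC_Os02g51110), which rose by 1.62 ± 0.33 on the log2 scale (edgeR adjusted p = 0.0174), and Lsi2 (LOC_Os03g01700), which rose by 2.23 ± 0.41 (adjusted p = 0.0102). Lsi1 and Lsi2 make up most of the sum. The others, QHB, SCR1, SCR2, PIN2 and CRL1, had log2 changes of -0.32, -0.01, 0.16, 0.47 and -0.44 and did not pass. The part of root markers in the results below was not tested. The summed level of 8 photosynthesis genes that mark shoot tissue was 89.8, 403 and 34.4 CPM in the ethanol libraries and 225, 107 and 166 CPM in the PEP1 libraries, the groups overlapped, and none of the 8 passed.

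A total of 922 loci in 47 lists of processes and families received a gene name, and 828 of them were tested. In these lists 34 members rose and 61 fell, or 11.5% of the tested members against 5.19% of all genes, with a median log2 change of 0.00. The lists were written with earlier results of these data known, so this share describes them and is not evidence of enrichment. Of the 95 passing members, 34 passed without each wild type library in turn, and for the others the libraries that ended the call are named. In simulated data 29% of 2-fold changes passed, with genes of low mean CPM left out of the draw. A gene that did not pass is therefore not shown to be unchanged. Names rest on hand-written pairs of locus and symbol whose place on the chromosome was checked, and neighbouring copies of a family could be interchanged.

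**Figure D1:**
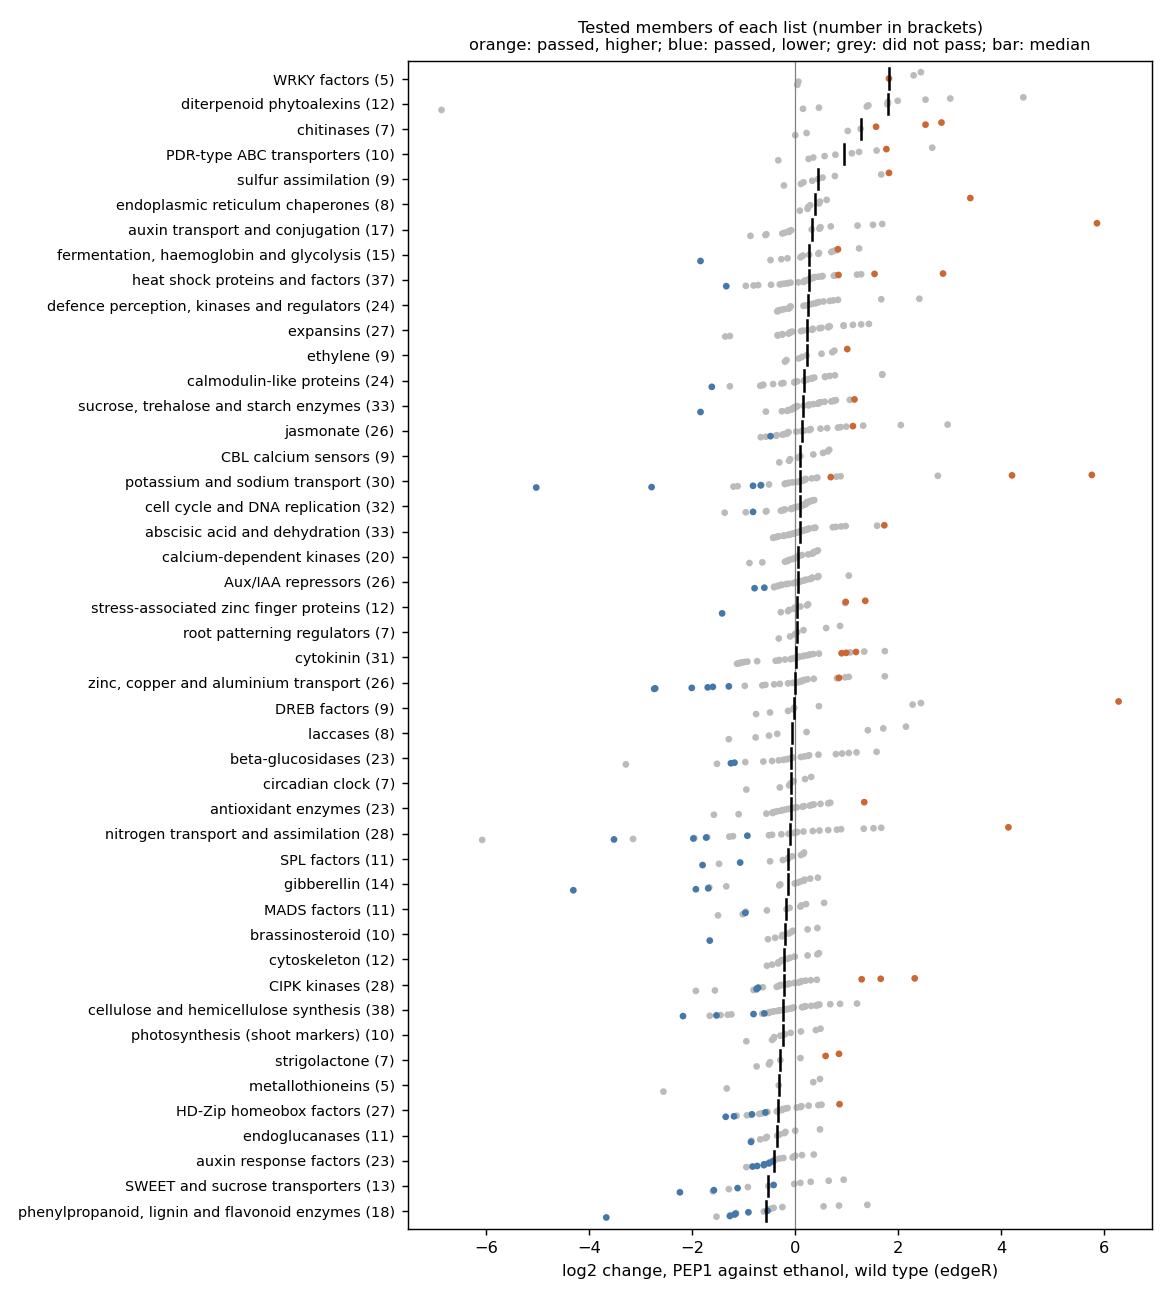
Log2 change under PEP1 in wild type roots (x axis) of every tested member of each list with at least 5 tested members (y axis, number tested in brackets). Orange points passed and were higher, blue points passed and were lower, grey points did not pass, and the black bar is the list's median. The median was lowest for the phenylpropanoid list at -0.57 and highest for the WRKY list at 1.82, which holds only 5 loci.

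Genes for 2 sodium transporters rose and a potassium transporter gene fell to low counts. Of 30 tested members of the potassium and sodium list, 3 rose and 4 fell, with a median log2 change of 0.10. HKT2;1 (LOC_Os06g48810), which takes up sodium into rice roots when potassium is short, had 32.7, 12.8 and 11.98 CPM under ethanol and 457, 196 and 411 CPM under PEP1. HKT1;4 (LOC_Os04g51830), a sodium transporter of the same family, had 1.43, 0.354 and 0.415 CPM under ethanol and 43.7, 18.5 and 56.6 CPM under PEP1. For both genes every PEP1 library was above every ethanol library, and PEP1 replicate 2 was the lowest of its group. HKT2;1 rose by 4.21 ± 0.55 on the log2 scale (SE, edgeR adjusted p = 0.00146) and HKT1;4 by 5.76 ± 0.60 (adjusted p = 0.000373). HKT1;5, which retrieves sodium from the xylem, had a log2 change of -1.20 and did not pass.

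HAK22 (LOC_Os07g01214), of the HAK family of potassium transporters, went the other way, with 16.49, 10.9 and 15.1 CPM under ethanol and 0.689, 0.178 and 0.394 CPM under PEP1. The PEP1 values were below 1 CPM in all 3 libraries. HAK22 fell by 5.03 ± 0.45 on the log2 scale (edgeR adjusted p = 0.000144). CCC2 (LOC_Os01g19850), a cation-chloride cotransporter, fell by 2.79 ± 0.48 (adjusted p = 0.00739) from a mean of 5.32 ± 2.65 to 0.766 ± 0.320 CPM (SD, n = 3 each). HAK10 (LOC_Os06g42030) rose by 0.69 ± 0.14, a call lost without PEP1 replicate 1 or 3 (adjusted p up to 0.0707). HAK25 (LOC_Os02g49760) fell by 0.82 ± 0.17 and HAK12 (LOC_Os08g10550) by 0.67 ± 0.17. HAK25's call was lost without ethanol replicate 2 or 3 or PEP1 replicate 1 or 3 (adjusted p up to 0.0967), and HAK12's when any 1 library other than PEP1 replicate 3 was left out (adjusted p up to 0.175).

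The best known potassium uptake genes of rice roots did not pass with all libraries in the fit, and their values split the libraries within both groups. HAK1 (LOC_Os04g32920), a high-affinity potassium transporter, had 1229, 84.5 and 109 CPM under ethanol and 983, 272 and 1370 CPM under PEP1. AKT1 (LOC_Os01g45990), the inward potassium channel, had 470, 74.1 and 93.8 CPM under ethanol and 391, 98.6 and 618 CPM under PEP1. For both genes ethanol replicate 1 and PEP1 replicates 1 and 3 were high, the other 3 libraries were low, and the groups overlapped. The log2 changes were 0.88 (adjusted p = 0.686) for HAK1 and 0.80 (adjusted p = 0.664) for AKT1. The same 3 libraries were the highest for the ammonium transporter AMT1-3 (LOC_Os02g40730), with 528, 33.1 and 42.3 CPM under ethanol and 677, 163 and 886 CPM under PEP1. They were also the highest for GLN1-2 (LOC_Os03g12290), a cytosolic glutamine synthetase, with 1352, 34.7 and 75.1 CPM under ethanol and 1788, 506 and 2352 CPM under PEP1. Neither passed (adjusted p = 0.488 and 0.486). These outcomes turned on ethanol replicate 1. Without that library HAK1 passed with a log2 change of 3.16 (edgeR adjusted p = 0.0362), AMT1-3 with 3.92 (adjusted p = 0.0316) and GLN1-2 with 4.8 (adjusted p = 0.0152), whereas AKT1 did not pass (2.12, adjusted p = 0.112). Without ethanol replicate 1 and PEP1 replicate 2 together, the count of passing genes was 4249 (2524 higher, 9.67% of genes, and 1725 lower, 6.61%). This setting was chosen after seeing the data, because these libraries lay between the groups along the first principal component. Leaving them out sets the groups farther apart by construction. Counts of list members in that setting are to be read against these shares. Those without ethanol replicate 1 alone are to be read against 5.48% higher and 5.77% lower, and those with all libraries against 5.19%. Without ethanol replicate 1 and PEP1 replicate 2 all 4 genes passed, HAK1 with a log2 change of 3.61 (edgeR adjusted p = 0.013) and AKT1 with 2.59 (adjusted p = 0.0332).

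**Figure D2:**
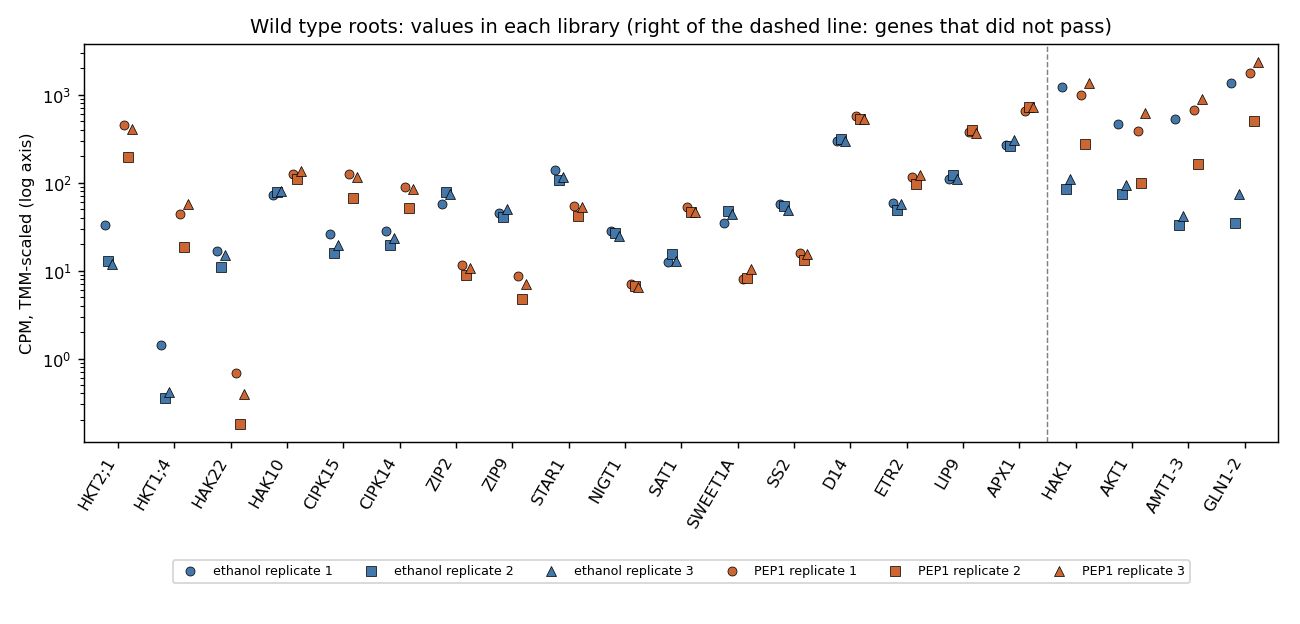
TMM-scaled CPM in each wild type library (log y axis) of 17 genes that passed and, right of the dashed line, 4 that did not, with ethanol in blue, PEP1 in orange and the replicate given by the symbol. HKT2;1 rose from at most 32.7 CPM to at least 196 CPM, whereas HAK1 spanned 84.5 to 1229 CPM under ethanol and 272 to 1370 CPM under PEP1.

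Among calcium signalling genes, members of the CIPK kinase family rose and fell while their CBL partners did not pass with all libraries in the fit. Of 28 tested CIPK genes, 3 rose and 2 fell, with a median log2 change of -0.22, whereas 0 of 9 CBL genes and 0 of 20 calcium-dependent kinase genes passed in edgeR. Without ethanol replicate 1, 3 CIPK genes passed higher and 4 lower, and 1 CBL gene passed higher. In that fit 2 calcium-dependent kinase genes passed higher and 1 lower, against 5.48% and 5.77% of all genes. Without ethanol replicate 1 and PEP1 replicate 2, 3 CIPK genes passed higher and 3 lower, and 2 CBL and 4 calcium-dependent kinase genes passed higher. The shares of all genes were then 9.67% higher and 6.61% lower. CIPK15 (LOC_Os11g02240), known in rice for sugar and low-oxygen signalling, had 26.4, 15.7 and 19.6 CPM under ethanol and 125, 67.0 and 116 CPM under PEP1. CIPK14 (LOC_Os12g02200), its near-identical copy, had 28.1, 19.4 and 23.19 CPM under ethanol and 88.5, 51.2 and 84.2 CPM under PEP1. Every PEP1 value of both genes exceeded every ethanol value, and reads could have been divided between the copies. CIPK15 rose by 2.32 ± 0.37 on the log2 scale (edgeR adjusted p = 0.00481) and CIPK14 by 1.66 ± 0.28 (adjusted p = 0.00649).

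CIPK23 (LOC_Os07g05620), which activates the AKT1 channel in rice, rose by 1.29 ± 0.32, from 460, 312 and 268 CPM under ethanol to 1040, 590 and 921 CPM under PEP1. CIPK29 (LOC_Os07g48090) and CIPK32 (LOC_Os12g03810) fell by 0.75 ± 0.13 and 0.72 ± 0.17. These 3 calls depended on single libraries. CIPK23's was lost without ethanol replicate 2 or 3 or PEP1 replicate 1 or 3 (adjusted p up to 0.15), CIPK29's without PEP1 replicate 1 (adjusted p = 0.0508) and CIPK32's when ethanol replicate 2 or any 1 PEP1 library was left out (adjusted p up to 0.131). One of 24 calmodulin-like genes fell, CML1 (LOC_Os01g59530), by 1.62 ± 0.38, a call lost when any 1 library other than ethanol replicate 1 was left out (adjusted p up to 0.122).

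Nitrate reductase and a nitrate-inducible repressor were lower under PEP1. Of 28 tested nitrogen genes, 4 fell and 1 rose, with a median log2 change of -0.11. This balance turned with the libraries. Without ethanol replicate 1, 6 passed higher and 4 lower, with a median of 0.39, and without that library and PEP1 replicate 2, 7 passed higher and 3 lower, with a median of 0.32. NIGT1 (LOC_Os02g22020), a nitrate-inducible transcriptional repressor, had 28.2, 27.1 and 24.9 CPM under ethanol and 7.09, 6.71 and 6.46 CPM under PEP1. Its libraries differed little within each group, and it fell by 1.98 ± 0.17 on the log2 scale (edgeR adjusted p = 8.69e-05). NIA1 (LOC_Os08g36480), nitrate reductase, had 292, 111 and 88.2 CPM under ethanol and 16.88, 12.3 and 13.7 CPM under PEP1 and fell by 3.52 ± 0.45 (adjusted p = 0.00133). Of the glutamine synthetase genes, GLN1-1 and GLN2 fell. GLN1-2, given above, had a log2 change of 1.67 and did not pass (edgeR adjusted p = 0.486), but it passed higher without ethanol replicate 1. GLN1-1 (LOC_Os02g50240), of the cytosol, fell by 0.93 ± 0.19, a call lost without PEP1 replicate 1 or 3 (adjusted p up to 0.0887). GLN2 (LOC_Os04g56400), of the plastid, fell by 1.73 ± 0.41, a call lost when any 1 PEP1 library was left out (adjusted p up to 0.121). GLT2 (LOC_Os05g48200), a glutamate synthase, rose by 4.14 ± 1.02 from at most 1.24 CPM to at least 3.92 CPM, and its call was lost without ethanol replicate 2 or 3 or PEP1 replicate 1 or 3 (adjusted p up to 0.139).

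In sulfur assimilation, 1 of 9 tested genes rose and the median log2 change was 0.44. SAT1 (LOC_Os01g52260), a serine acetyltransferase that makes the precursor of cysteine, had 12.6, 15.5 and 12.9 CPM under ethanol and 52.2, 46.8 and 46.0 CPM under PEP1. All PEP1 values were well above all ethanol values, with a rise of 1.82 ± 0.18 on the log2 scale (edgeR adjusted p = 0.000258). APR1 (LOC_Os07g32570), adenosine phosphosulfate reductase, had a log2 change of 0.44 and did not pass (adjusted p = 0.422).

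The zinc, copper and aluminium transport genes that passed mostly fell. Of 26 tested members 6 fell and 1 rose, with a median log2 change of 0.00. ZIP2 (LOC_Os03g29850), of the ZIP family of metal transporters, had 57.2, 77.8 and 73.6 CPM under ethanol and 11.7, 8.85 and 10.7 CPM under PEP1. ZIP9 (LOC_Os05g39540), a zinc uptake transporter of roots, had 45.6, 40.6 and 49.9 CPM under ethanol and 8.66, 4.81 and 7.10 CPM under PEP1. The groups were far apart for both genes, and ZIP2 fell by 2.74 ± 0.20 on the log2 scale (edgeR adjusted p = 4.95e-05) and ZIP9 by 2.72 ± 0.24 (adjusted p = 0.000144). ZIP5 (LOC_Os05g39560), which neighbours ZIP9, fell by 1.70 ± 0.20. STAR1 (LOC_Os06g48060), the ATP-binding part of a transporter needed for aluminium tolerance, fell by 1.29 ± 0.15, from 139, 108 and 116 CPM to 54.3, 41.5 and 52.9 CPM. The copper transporter gene COPT5.1 (LOC_Os09g26900) fell by 1.60 ± 0.19.

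HMA5 (LOC_Os04g46940), a copper pump that loads the xylem, was the member of that list that rose, from 44.6, 49.4 and 44.0 CPM to 97.3, 69.9 and 82.1 CPM, by 0.85 ± 0.12 (edgeR adjusted p = 0.0026). COPT2 (LOC_Os05g35050), also a copper transporter, fell by 2.01 ± 0.39 at levels of at most 1.48 CPM, a call lost without ethanol replicate 3 or PEP1 replicate 1 (adjusted p up to 0.0802). ZIP4 (log2 change -0.98, adjusted p = 0.24) and ZIP1 (0.81, adjusted p = 0.68) did not pass.

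The sugar transport genes that passed with all libraries in the fit fell. Of 13 tested SWEET and sucrose transporter genes, 4 fell and 0 rose, with a median log2 change of -0.52. In this list 0 passed higher and 3 lower without ethanol replicate 1, and 2 higher and 3 lower without that library and PEP1 replicate 2. SWEET1A (LOC_Os01g65880), of the SWEET family of sugar carriers, had 34.9, 47.6 and 43.8 CPM under ethanol and 8.12, 8.20 and 10.4 CPM under PEP1 and fell by 2.24 ± 0.31 on the log2 scale (edgeR adjusted p = 0.00216). The groups did not overlap. SWEET16 (LOC_Os03g22200) fell by 1.58 ± 0.38 and SWEET2B (LOC_Os01g50460) by 1.12 ± 0.27, with calls lost when any 1 library other than ethanol replicate 1 was left out (adjusted p up to 0.166 and 0.141). SUT4 (LOC_Os02g58080), a sucrose transporter, fell by 0.42 ± 0.10, and its call was lost when any 1 library was left out (adjusted p up to 0.168). Among 33 enzymes of sucrose, trehalose and starch, 1 rose and 1 fell, and without ethanol replicate 1 and PEP1 replicate 2 together 6 passed higher and 1 lower. SS2 (LOC_Os02g51070), a starch synthase, fell from 57.8, 53.9 and 48.4 CPM to 16.04, 13.1 and 15.4 CPM, by 1.84 ± 0.22 (adjusted p = 0.000967). TPP9 (LOC_Os03g26910), a trehalose phosphatase, rose by 1.15 ± 0.26, a call lost when any 1 library was left out (adjusted p up to 0.0882).

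The auxin response factor genes that passed all fell under PEP1, by small amounts. Of 23 tested members, 6 fell and 0 rose, 20 had a log2 change below zero and the median was -0.41. ARF9 (LOC_Os04g36054), one of these transcription factors, had 227, 204 and 201 CPM under ethanol and 121, 119 and 116 CPM under PEP1 and fell by 0.83 ± 0.11 on the log2 scale (edgeR adjusted p = 0.00136). Every ethanol value of ARF9 lay above every PEP1 value. ARF3 (LOC_Os01g54990), ARF10 (LOC_Os04g43910), ARF14 (LOC_Os05g43920) and ARF7 (LOC_Os02g35140) fell by 0.74, 0.60, 0.51 and 0.44, and ARF18 (LOC_Os06g47150) by 0.61. The calls of the first 4 were lost when any 1 library other than ethanol replicate 1 was left out (adjusted p up to 0.183), and that of ARF18 without ethanol replicate 2 or 3 or PEP1 replicate 1 or 3 (adjusted p up to 0.174).

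Of 26 tested Aux/IAA genes, whose proteins repress auxin output, 2 fell and 0 rose, and the median log2 change was 0.05. IAA21 (LOC_Os06g22870) had 184, 226 and 198 CPM under ethanol and 115, 128 and 109 CPM under PEP1 and fell by 0.79 ± 0.11 (edgeR adjusted p = 0.00263). IAA10 (LOC_Os02g57250) fell by 0.60 ± 0.14, a call lost when any 1 library other than ethanol replicate 1 was left out (adjusted p up to 0.147). In auxin transport and conjugation 1 of 17 genes rose, PIN5C (LOC_Os08g41720), from at most 0.0620 CPM to 1.33, 2.97 and 0.394 CPM, a call lost without ethanol replicate 2 or 3 or PEP1 replicate 1 or 2 (adjusted p up to 0.0882). The auxin efflux carrier genes PIN1A (log2 change -0.12, adjusted p = 0.88) and PIN2 (0.47, adjusted p = 0.76) did not pass.

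**Figure D3:**
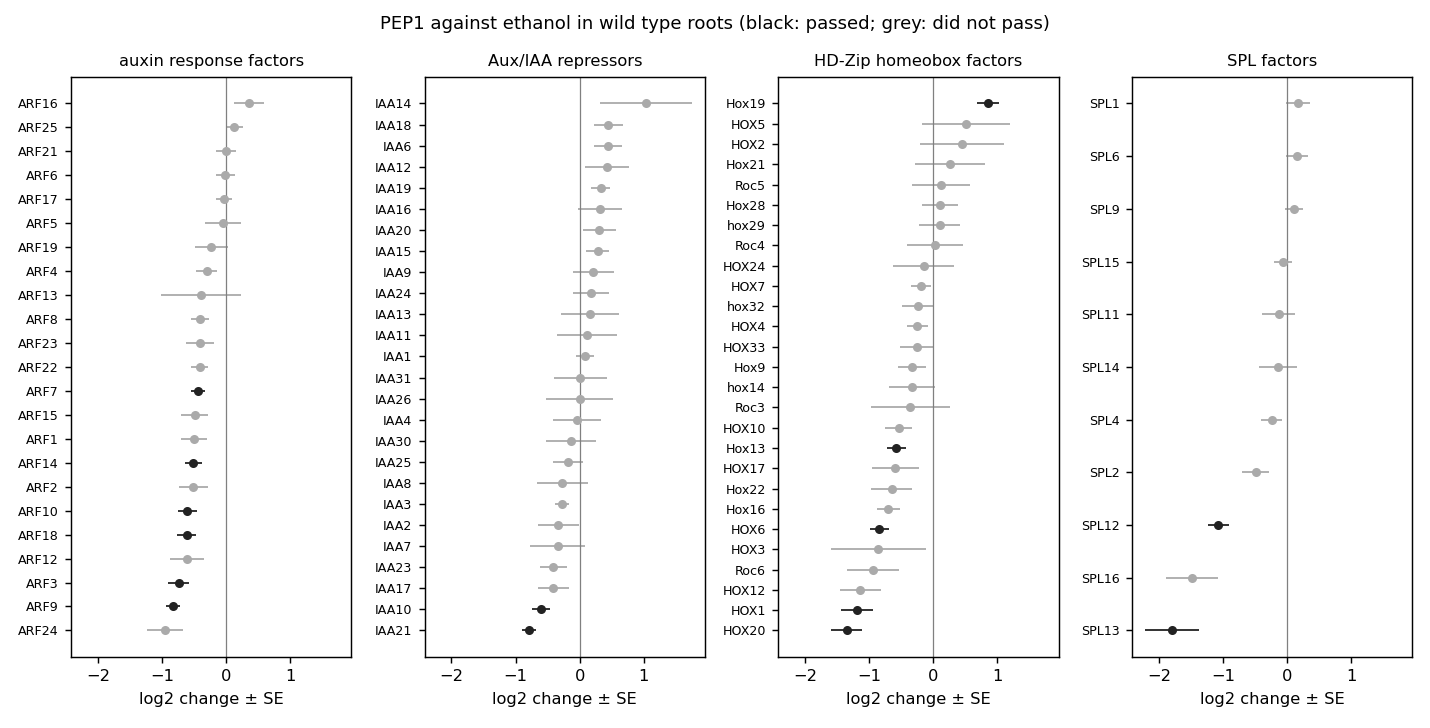
Log2 change ± SE under PEP1 in wild type roots (x axes) of each tested member of 4 transcription factor families (y axes), with members that passed in black and the others in grey. Of the auxin response factors 20 of 23 lie left of zero and of the HD-Zip factors 19 of 27, against 12 of 26 Aux/IAA genes.

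Among HD-Zip, SPL and MADS factors more passing genes fell than rose, in small numbers. The shares of tested members that passed were 18.5%, 18.2% and 9.09%, against 5.19% of all genes. Of 27 tested HD-Zip homeobox genes, 4 fell and 1 rose, with 19 below zero and a median log2 change of -0.33. HOX6 (LOC_Os09g35910) went from 72.1, 95.01 and 72.1 CPM to 47.2, 39.9 and 46.5 CPM and fell by 0.84 ± 0.15 (edgeR adjusted p = 0.0103). HOX20 (LOC_Os08g37580) fell by 1.35 ± 0.24, a call lost without PEP1 replicate 3 (adjusted p = 0.0519). HOX1 (LOC_Os10g41230) fell by 1.19 ± 0.25, a call lost without ethanol replicate 2 or 3 or PEP1 replicate 1 or 3 (adjusted p up to 0.1), and Hox13 (LOC_Os03g08960) by 0.58 ± 0.15, lost when any 1 library other than ethanol replicate 1 was left out (adjusted p up to 0.168). Hox19 (LOC_Os03g12860) rose by 0.86 ± 0.17, a call lost without PEP1 replicate 1 or 3 (adjusted p up to 0.0836).

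SPL12 (LOC_Os06g49010), of the SPL factors that are targets of miR156 in plants, had 99.2, 110 and 112 CPM under ethanol and 47.6, 57.0 and 48.0 CPM under PEP1 and fell by 1.07 ± 0.16 (edgeR adjusted p = 0.00384). It was 1 of 2 among 11 SPL genes that fell. The other, SPL13 (LOC_Os07g32170), fell by 1.80 ± 0.42 from at most 3.07 CPM, a call lost when any 1 library other than ethanol replicate 1 was left out (adjusted p up to 0.147). MADS50 (LOC_Os03g03070), a flowering activator in rice, fell by 0.97 ± 0.18 and was 1 of 11 MADS genes to pass, a call lost without PEP1 replicate 1 or 3 (adjusted p up to 0.0665). None of 7 root patterning regulators passed in edgeR, and SHR1 and SCR1 had log2 changes of 0.04 and -0.01 (adjusted p = 0.961 and 0.988).

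Hormone genes outside auxin changed in small numbers. D14 (LOC_Os03g10620), the strigolactone receptor, had 296, 313 and 299 CPM under ethanol and 573, 528 and 532 CPM under PEP1. Its libraries were tight within each group, and it rose by 0.85 ± 0.12 on the log2 scale (edgeR adjusted p = 0.00201). D3 (LOC_Os06g06050), the F-box protein that acts with D14, rose by 0.59 ± 0.13, a call lost when any 1 library other than ethanol replicate 1 was left out (adjusted p up to 0.113). These were 2 of 7 tested strigolactone genes, and the synthesis genes CCD7 (log2 change -0.75, adjusted p = 0.3) and CCD8B (-0.51, adjusted p = 0.69) did not pass. ETR2 (LOC_Os04g08740), an ethylene receptor, rose from 59.4, 48.8 and 57.0 CPM to 115, 95.6 and 123 CPM, by 1.01 ± 0.12 (adjusted p = 0.000899), as 1 of 9 ethylene genes.

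In gibberellin biology the falls were in synthesis genes. Of 14 tested gibberellin genes 3 fell and 0 rose, and the 3 encode synthesis enzymes. CPS1 (LOC_Os02g17780), which makes the first cyclic precursor, had 8.99, 22.6 and 13.8 CPM under ethanol and 1.03, 0.535 and 0.690 CPM under PEP1 and fell by 4.31 ± 0.61 (edgeR adjusted p = 0.00259). CYP701A6 (LOC_Os06g37364), ent-kaurene oxidase, fell by 1.69 ± 0.35, a call lost without PEP1 replicate 1 or 3 (adjusted p up to 0.0878). GA20OX2 (LOC_Os01g66100), the oxidase altered in semi-dwarf rice, fell by 1.93 ± 0.36, a call lost without PEP1 replicate 1 (adjusted p = 0.069). The gibberellin response genes SLR1 (log2 change 0.06) and gid1 (-0.29) did not pass (adjusted p = 0.883 and 0.258). CYP85A1 (LOC_Os03g40540), a brassinosteroid oxidase, fell by 1.66 ± 0.34 as 1 of 10, and its call was lost without ethanol replicate 2 or 3 or PEP1 replicate 1 or 3 (adjusted p up to 0.0967).

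Of 31 tested cytokinin genes 3 rose and 0 fell, with a median log2 change of 0.02. CKX3 (LOC_Os10g34230), which degrades cytokinins, rose by 0.90 ± 0.18, a call lost without PEP1 replicate 1 (adjusted p = 0.0747). LOGL7 (LOC_Os05g46360) and LOGL1 (LOC_Os01g51210), which activate cytokinins, rose by 0.99 ± 0.21 and 1.18 ± 0.27. LOGL7's call was lost without ethanol replicate 3 or PEP1 replicate 1 or 2 (adjusted p up to 0.0848), and LOGL1's without ethanol replicate 2 or 3 or PEP1 replicate 1 or 3 (adjusted p up to 0.13).

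Single genes of water and cold stress passed with all libraries in the fit. LIP9 (LOC_Os02g44870), a dehydrin, had 110, 122 and 110 CPM under ethanol and 381, 392 and 365 CPM under PEP1. The spread within each group was small beside the difference, and LIP9 rose by 1.73 ± 0.13 on the log2 scale (edgeR adjusted p = 4.78e-05). It was 1 of 33 tested genes of abscisic acid and dehydration to pass, and none fell. In that list 5 passed higher without ethanol replicate 1 and PEP1 replicate 2. DREB1G (LOC_Os02g45450), of the DREB factors of cold and drought responses, had 0, 0.0591 and 0 CPM under ethanol and 2.41, 1.55 and 2.27 CPM under PEP1, so its fitted rise of 6.28 ± 0.85 (adjusted p = 0.0019) rests on low counts. The remaining 8 tested DREB genes did not pass.

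Among defence genes, 3 chitinase genes rose with all libraries in the fit, and only Cht1's call held without each library in turn. Of 24 tested genes of defence perception, kinases and regulators, 0 passed in edgeR, which is close to the 5.19% of all genes. The chitin receptor kinase gene CERK1 (log2 change -0.13, adjusted p = 0.52) and MPK5 (0.74, adjusted p = 0.19) are in that list. Of the same list, 3 passed higher and 1 lower without ethanol replicate 1, and 7 higher and 1 lower without that library and PEP1 replicate 2. In those fits 5.48% and 9.67% of all genes passed higher. Of 7 tested chitinase genes 3 rose and 0 fell (42.9%, against 5.19% of all genes), with a median log2 change of 1.27. Cht1 (LOC_Os06g51060) had 12.4, 14.4 and 14.95 CPM under ethanol and 42.0, 37.0 and 44.9 CPM under PEP1 and rose by 1.57 ± 0.20 (edgeR adjusted p = 0.00141). Its neighbour Cht3 (LOC_Os06g51050) rose by 2.84 ± 0.58, a call lost without ethanol replicate 2 or 3 or PEP1 replicate 1 or 3 (adjusted p up to 0.0779), and Cht6 (LOC_Os02g39330) by 2.53 ± 0.53, lost without ethanol replicate 3 or PEP1 replicate 3 (adjusted p up to 0.0848). None of 12 tested genes of diterpenoid phytoalexins passed, although their median log2 change was 1.80. Without ethanol replicate 1 and replicate 2 of both RNAi groups, 9 list members were called higher (5.4% of all genes in that fit) and 1 lower (5.74%), and with DESeq2 2 higher and 1 lower. Without ethanol replicate 1 alone, when 14 members were tested, and without it and PEP1 replicate 2, 0 were called in either direction.

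WRKY24 (LOC_Os01g61080) was the 1 of 5 WRKY genes that passed, and it rose by 1.82 ± 0.44. Of these 5 genes 0 had a log2 change below zero. The list holds only the WRKY loci that received a name and does not stand for the family. Without ethanol replicate 1, 3 of the 5 genes passed higher, and 3 also without that library and PEP1 replicate 2. OPR1 (LOC_Os06g11290) and AOC3 (LOC_Os03g32314), enzymes of the jasmonate family, rose by 1.12 ± 0.25 and fell by 0.48 ± 0.11. WRKY24's and AOC3's calls were lost when any 1 library other than ethanol replicate 1 was left out (adjusted p up to 0.141 and 0.13), and OPR1's without ethanol replicate 2 or 3 or PEP1 replicate 1 or 3 (adjusted p up to 0.117). Among 26 jasmonate genes the JAZ repressor gene TIFY10B had a log2 change of 0.29 (adjusted p = 0.286). ABCG44 (LOC_Os08g29570), 1 of 10 PDR-type transporter genes, rose by 1.77 ± 0.41, a call lost when any 1 library other than ethanol replicate 1 was left out (adjusted p up to 0.118). Of the 10 genes, 3 passed higher without ethanol replicate 1, and 5 without that library and PEP1 replicate 2.

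The phenylpropanoid genes that passed with all libraries in the fit fell, and they include some of the most abundant transcripts of these roots. Of 18 tested members 6 fell and 0 rose, with the lowest median log2 change of the lists in the plot of list members, -0.57. Leaving out ethanol replicate 1 gave 1 member higher and 8 lower, and leaving out PEP1 replicate 2 as well gave 2 higher and 7 lower. ZB8 (LOC_Os02g41650), a phenylalanine ammonia-lyase that opens the pathway, had 1763, 2975 and 2037 CPM under ethanol and 1019, 862 and 935 CPM under PEP1. PAL (LOC_Os02g41630), a neighbouring copy of it, had 7398, 10163 and 7797 CPM under ethanol and 4096, 3301 and 3981 CPM under PEP1. The groups did not overlap for either gene, and ethanol replicate 2 was the highest library for both. ZB8 fell by 1.27 ± 0.22 on the log2 scale (edgeR adjusted p = 0.0077) and PAL by 1.16 ± 0.24, a call lost when any 1 PEP1 library was left out (adjusted p up to 0.0752). The coumarate ligase genes 4CL3 (LOC_Os02g08100) and 4CL4 (LOC_Os06g44620) fell by 1.18 ± 0.25 and 0.54 ± 0.10. 4CL3's call was lost when ethanol replicate 2 or any 1 PEP1 library was left out (adjusted p up to 0.0795) and 4CL4's without PEP1 replicate 1 (adjusted p = 0.0532). CHS1 (LOC_Os11g32650) and CHI (LOC_Os03g60509), which open flavonoid synthesis, fell by 3.67 ± 0.71 and 0.91 ± 0.22. CHS1's call was lost without PEP1 replicate 1 or 3 (adjusted p up to 0.0703) and CHI's without ethanol replicate 2 or 3 or PEP1 replicate 1 or 2 (adjusted p up to 0.143).

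Genes for S-adenosylmethionine synthase, which supplies the methyl donor for lignin precursors and the precursor of ethylene, also fell. SAM1 (LOC_Os05g04510) had 5570, 8712 and 5327 CPM under ethanol and 2646, 2088 and 2472 CPM under PEP1. SAM2 (LOC_Os01g22010) had 3003, 2957 and 2639 CPM under ethanol and 1278, 1271 and 1210 CPM under PEP1. Every PEP1 value was below every ethanol value for both, and SAM1 fell by 1.44 ± 0.25 (edgeR adjusted p = 0.00733) and SAM2 by 1.19 ± 0.15 (adjusted p = 0.00143). SAMDC (LOC_Os04g42090), which uses S-adenosylmethionine for polyamines, had a log2 change of -0.06 (adjusted p = 0.769).

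The cell wall genes that passed with all libraries in the fit fell, and none of these calls held without each library in turn. Of 38 tested genes of cellulose and hemicellulose synthesis 4 fell and 0 rose (10.5%, against 5.19% of all genes), with a median log2 change of -0.23. Without ethanol replicate 1, 1 passed higher and 6 lower (5.48% and 5.77% of all genes). Without that library and PEP1 replicate 2, 4 passed higher and 5 lower (9.67% and 6.61% of all genes). With DESeq2 0 passed higher and 11 lower, where 2577 genes passed in all, 1336 of them lower. CESA3 (LOC_Os07g24190), a cellulose synthase of the primary wall, fell by 0.81 ± 0.18, from 833, 891 and 1012 CPM to 513, 521 and 531 CPM, a call lost when any 1 library other than ethanol replicate 1 was left out (adjusted p up to 0.102). IRX9L (LOC_Os01g48440), a xylan synthesis gene, fell by 0.60 ± 0.11, a call lost without PEP1 replicate 3 (adjusted p = 0.0612). CSLA9 (LOC_Os06g42020) and CSLE6 (LOC_Os09g30130), cellulose synthase-like genes, fell by 2.18 ± 0.45 and 1.53 ± 0.32. CSLA9's call was lost without ethanol replicate 3 or PEP1 replicate 1 or 3 (adjusted p up to 0.0979), and CSLE6's without ethanol replicate 2 or 3 or PEP1 replicate 1 or 3 (adjusted p up to 0.0952). The endoglucanase gene GLU2 (LOC_Os03g52630) fell by 0.86 ± 0.21, a call lost when any 1 library other than ethanol replicate 1 was left out (adjusted p up to 0.147). None of 27 tested expansin genes and none of 8 laccase genes passed in edgeR. For expansins, 1 gene passed higher without ethanol replicate 1, and 3 without that library and PEP1 replicate 2 (9.67% of all genes in that fit). BGLU27 (LOC_Os08g39860) and BGLU28 (LOC_Os08g39870), neighbouring beta-glucosidase genes, fell by 1.25 ± 0.25 and 1.18 ± 0.29. BGLU27's call was lost without ethanol replicate 2 or 3 or PEP1 replicate 1 or 3 (adjusted p up to 0.0815), and BGLU28's when any 1 library other than ethanol replicate 1 was left out (adjusted p up to 0.163).

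Protection genes rose singly with all libraries in the fit. APX1 (LOC_Os03g17690), a cytosolic ascorbate peroxidase, had 268, 258 and 306 CPM under ethanol and 651, 731 and 730 CPM under PEP1 and rose by 1.34 ± 0.15 (edgeR adjusted p = 0.000756), as 1 of 23 antioxidant genes (5 passed higher without ethanol replicate 1 and PEP1 replicate 2). HSP23.2 (LOC_Os04g36750), a small heat shock protein, rose by 2.87 ± 0.26 from 1.12, 1.54 and 1.66 CPM to 9.84, 12.2 and 9.66 CPM. HSP24.1 (LOC_Os02g52150), also a small heat shock protein, rose by 1.54 ± 0.26 (adjusted p = 0.00699). Of 37 heat shock proteins and factors 3 rose and 1 fell. HSFC2A (LOC_Os02g13800), a heat shock factor, rose by 0.84 ± 0.19, a call lost when any 1 library other than ethanol replicate 2 was left out (adjusted p up to 0.12), and HSFC1A (LOC_Os01g43590) fell by 1.34 ± 0.32, lost when ethanol replicate 2 or any 1 PEP1 library was left out (adjusted p up to 0.168).

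Among 12 tested stress-associated zinc finger genes 2 rose and 1 fell. SAP1 (LOC_Os09g31200) rose by 1.36 ± 0.24, from 30.2, 29.4 and 34.0 CPM to 87.4, 64.3 and 88.3 CPM (edgeR adjusted p = 0.00793). SAP8 (LOC_Os06g41010) fell by 1.42 ± 0.32, a call lost when ethanol replicate 2 or any 1 PEP1 library was left out (adjusted p up to 0.098), and SAP9 (LOC_Os07g07350) rose by 0.98 ± 0.24, lost without ethanol replicate 2 or 3 or PEP1 replicate 1 or 3 (adjusted p up to 0.161). Of 15 tested genes of fermentation, haemoglobin and glycolysis 1 rose and 1 fell, whereas 5 passed higher and 0 lower without ethanol replicate 1 and 7 higher and 0 lower without that library and PEP1 replicate 2. Adh2 (LOC_Os11g10510), alcohol dehydrogenase, rose by 0.83 ± 0.17, a call lost without ethanol replicate 2 or PEP1 replicate 1 or 3 (adjusted p up to 0.0886). PDC3 (LOC_Os07g49250), pyruvate decarboxylase, fell by 1.84 ± 0.46 at levels below 1 CPM, lost when any 1 library was left out (adjusted p up to 0.197). BIP4 (LOC_Os05g35400), a chaperone of the endoplasmic reticulum, rose by 3.4 ± 0.81 from at most 0.124 CPM, lost when any 1 library other than PEP1 replicate 3 was left out (adjusted p up to 0.119).

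The share of growth and timing genes that passed was close to that of all genes or at 0. Of 32 tested cell cycle and DNA replication genes 1 fell (3.12%, against 5.19% of all genes), CYCD6-1 (LOC_Os07g37010), by 0.82 ± 0.19, a call lost without ethanol replicate 2 or 3 or PEP1 replicate 1 or 3 (adjusted p up to 0.148). The replication clamp gene PCNA (log2 change 0.37, adjusted p = 0.69) and CYCB1-1 (0.22, adjusted p = 0.88) did not pass. None of 12 cytoskeleton genes, 7 circadian clock genes or 5 metallothionein genes passed in edgeR. When ethanol replicate 1 and PEP1 replicate 2 were both left out, 3 cell cycle genes passed lower, 1 cytoskeleton gene passed higher, and 1 metallothionein gene passed in each direction. The clock genes LHY (log2 change -0.09) and GI (0.31) had adjusted p = 0.823 and 0.452.

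Outside the named lists, the features with the largest passing changes at a mean of at least 20 CPM in 1 group carry no gene name in the sources used here. LOC_Os05g48740 had 0.248, 0.236 and 0.119 CPM under ethanol and 23.17, 39.3 and 20.5 CPM under PEP1 and rose by 7.06 ± 0.53 on the log2 scale (edgeR adjusted p = 5.34e-05). LOC_Os01g11730 had 0.992, 0.709 and 0 CPM under ethanol and 18.94, 6.71 and 98.7 CPM under PEP1 and rose by 6.19 ± 1.16 (adjusted p = 0.0118) whose size differed widely among the PEP1 libraries. Novel00992 fell from 112, 31.4 and 30.1 CPM to 0.197, 0.178 and 0.641 CPM, by 7.36 ± 0.87 (adjusted p = 0.000854). LOC_Os05g11320 fell from 8.99, 43.9 and 10.02 CPM to 0.295, 0 and 0.0985 CPM, by 7.19 ± 1.12 (adjusted p = 0.00793), a call lost without PEP1 replicate 3 (adjusted p = 0.0501).

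Whether these changes differed between the wild type and the RNAi line was tested by the interaction, the wild type change minus that of the line. In the RNAi line 3934 genes (15.4%) passed. Of the 95 members that passed in the wild type, 91 had the same sign there and 69 passed in the same direction. The 4 with the opposite sign were CIPK29, CIPK32, GLN2 and SWEET2B, with log2 changes of 0.02, 0.04, 0.13 and 0.35 in the RNAi line. Among all 1330 genes passing in the wild type, 1296 likewise kept their direction between the genotypes. A shared sign was therefore not particular to the list members. The interaction passed for 1 gene in all (0.00391%), LOC_Os12g13340, and for 0 of the 95 members, of which 14 had an unadjusted p below 0.05. The members were chosen by the wild type change that enters the interaction, so these counts describe them only. With DESeq2 95 genes passed the interaction, and 1353 had an unadjusted p below 0.05 in edgeR. The smallest adjusted p among the members was 0.234, for DREB1G, which had 9.75 ± 5.04 CPM under ethanol and 12.7 ± 4.82 CPM under PEP1 in the RNAi line (SD, n = 3 each). HKT2;1 came next. It rose in the RNAi line by 8.35 ± 0.70, from 0.687 ± 0.473 to 227 ± 84.3 CPM, and the interaction was -4.14 ± 0.78 (adjusted p = 0.25).

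**Figure D4:**
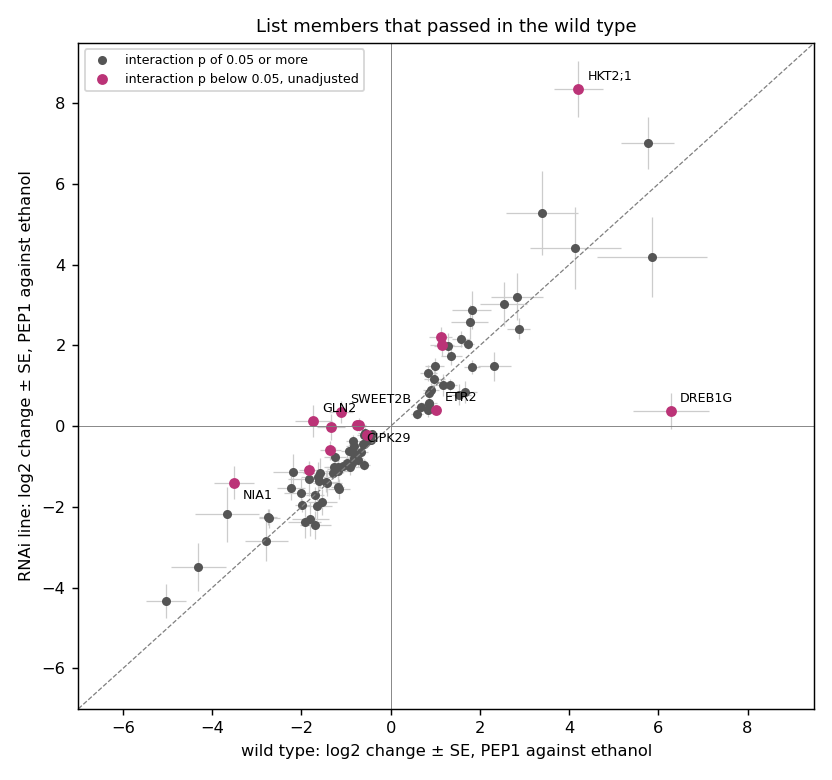
Log2 change ± SE under PEP1 in the wild type (x axis) and in the RNAi line (y axis) of the 95 list members that passed in the wild type, with those of an unadjusted interaction p below 0.05 in purple and the dashed line marking equal changes. DREB1G (6.28 and 0.38) and HKT2;1 (4.21 and 8.35) lie farthest from the line, and no member passed the adjusted interaction test.

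**Figure D5:**
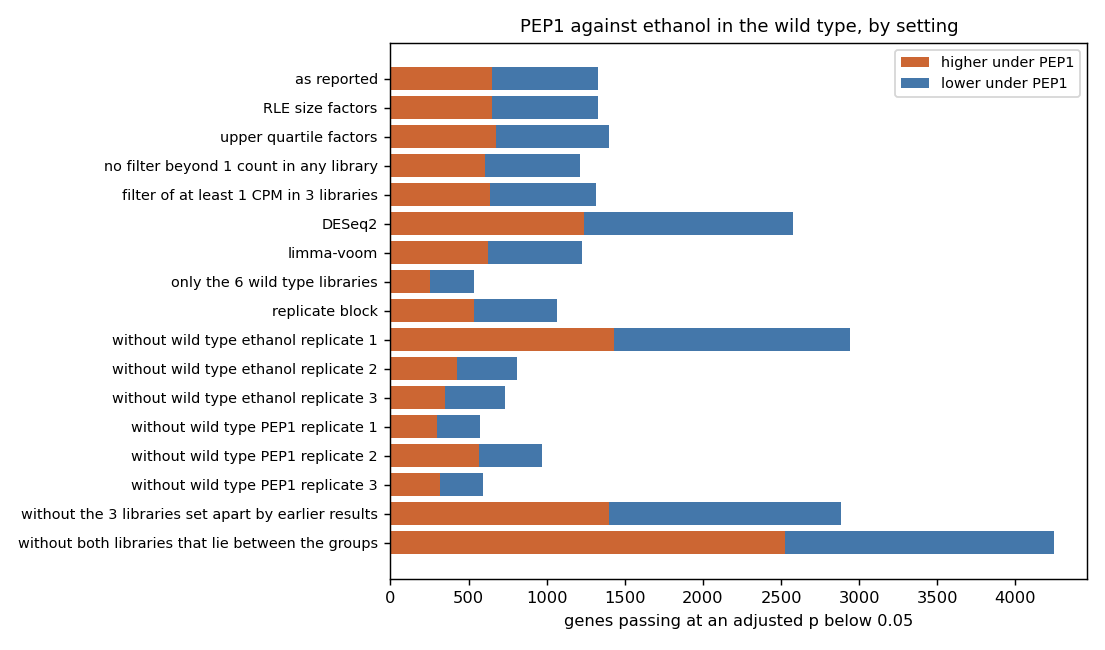
Number of genes passing at an adjusted p below 0.05 (x axis) in wild type roots under each setting (y axis), with higher genes in orange and lower genes in blue. The number ranges from 535 with only the 6 wild type libraries in the fit to 4249 without ethanol replicate 1 and PEP1 replicate 2.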

How the data were processed

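RNA-seq counts of 12 root libraries were used. The authors deposited raw counts (whole, not normalized) for 57265 features, of which 21168 had no count in any library. How reads were aligned, to which build, and how they were counted by strand is not given in the sources used here, so overlapping, antisense and near-identical genes are uncertain. Every column matched a sample's title.

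All 12 libraries entered 1 edgeR 4.0.16 quasi-likelihood fit (R 4.3.3) with group as the term, TMM scaling and filterByExpr defaults, and p-values of all 25602 genes tested were adjusted together (Benjamini-Hochberg). The common biological coefficient of variation was 0.313. SE is the absolute log2 change divided by the square root of F. CPM values are TMM-scaled. Floors of 3 counts cover counting error only. The code was tested on data simulated from the means and library sizes here. It recovered 29% of 100 genes changed 2-fold and 90% of 100 genes changed 4-fold. The changed genes were drawn without those of low mean CPM, so recovery of low-count genes was not measured. DESeq2 1.42.0, limma 3.58.1 (voom), other size factors and filters, a replicate block, left-out libraries and a fit of 6 libraries were alternatives.

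Members and lists were chosen with earlier results of these data known, and many families were added after values were seen, each as fully as recalled. The table pairs no names with loci. Of 959 hand-written pairs of locus and symbol, 948 were kept because the RefSeq table of assembly ASM3414082v1 (39387 genes) lists the symbol on that chromosome within 1% of its length from the place expected from neighbouring pairs. Of 292 loci in the first lists, 222 were named. The text names every passing member and the most abundant or best known others. For unnamed features whose groups did not overlap it gives the 2 that rose most and the 2 that fell most, leaving out iron, phosphate and aquaporin loci. Whether replicate numbers pair the libraries is not known. Correlations of deviations between libraries of the same number were 0.19, 0.34 and -0.33, and with 3 libraries a group they cannot settle it. The smallest chi-square per degree of freedom between replicates was 17.4, so no library was a duplicate.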

Additional observations from a re-analysis of the deposited data

Results flagged for a closer look

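LOC_Os12g13340 was the gene whose PEP1 change differed between the genotypes by the interaction test of edgeR (adjusted p = 0.00684). It had 1883, 1726 and 1872 CPM in the wild type under ethanol and 49.4, 24.06 and 37.1 CPM under PEP1, and it fell by 5.63 ± 0.35 on the log2 scale. In the RNAi line it had 15.5, 10.8 and 11.03 CPM under ethanol and 10.1, 5.14 and 6.29 CPM under PEP1, a log2 change of -0.79 ± 0.30 that did not pass (adjusted p = 0.0919). The difference was -4.84 ± 0.43. The RNAi line under ethanol was thus already below the lowest wild type PEP1 library. The interaction count was 0 without wild type PEP1 replicate 3, RNAi ethanol replicate 2 or RNAi ethanol replicate 3. The sources used here give no gene name for this locus.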

How the results depend on the processing

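Of the 95 members that passed, none changed direction under any alternative, 357 of 1517 recomputed calls were lost, and 34 members passed without each wild type library in turn. All 95 passed with RLE factors and with DESeq2, 91 with upper quartile factors, 85 with limma-voom, 85 with no filter on low counts and 37 of 93 with only the 6 wild type libraries. Counts of passing genes (higher and lower) were 2577 (1241 and 1336) with DESeq2, 535 (251 and 284) with only the 6 wild type libraries, 2882 (1398 and 1484) without the 3 libraries set apart by earlier results and, as an alternative chosen after seeing the data, 4249 (2524 and 1725) without ethanol replicate 1 and PEP1 replicate 2. The last leaves out the libraries that lay between the groups, and it is the setting in which higher genes outnumbered lower ones most. Under the same settings the members that passed higher and lower were 56 and 98, 19 and 24, 86 and 96, and 113 and 85. Leaving out 1 wild type library gave 571 to 2942 genes (299 to 1434 higher, 272 to 1508 lower) and 16 to 73 members higher and 21 to 89 lower. Genes passing the interaction numbered 95 with DESeq2, 2 with the replicate block, 4 without the 3 libraries and 0 to 6 with 1 library left out. The cause was not tested. The labels do not say whether replicate numbers pair the libraries. Ethanol replicate 1 deviated most like PEP1 replicate 3 (0.67), and ethanol replicates 2 and 3 most like PEP1 replicate 2 (0.34 and 0.51). With 3 libraries a group these correlations cannot settle it. With the replicate block 1063 genes passed (536 and 527), with 29 and 49 members. Depth limits genes near 1 CPM or below, such as DREB1G, PIN5C, PDC3 and BIP4. The fit of 6 libraries gives no interaction.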
